A study of Drosophila melanogaster with 2 samples.

Results

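Of 3102 binding peaks of the Drosophila transcription factor tx, 852 (27.5%) lay at divergent, head-to-head gene pairs. A peak was counted here when its summit, the base of highest signal, lay within 1000 bp of the transcription start sites of at least 2 protein-coding genes, 1 of them on the minus strand and to the left of the other on the plus strand, with at most 1000 bp between these start sites. The choice used positions only, and no measured strength. The 3102 peaks are the deposited optimal set on the dm6 genome build, selected by the irreproducible discovery rate (IDR). This rate scores how consistently peaks rank between lists, but not every peak kept ranked alike in the 2 replicates. The other peaks comprised 1087 near start sites of 1 gene only, 75 near several genes in other arrangements, and 1088 with no start site within 1000 bp.

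The data come from chromatin immunoprecipitation with sequencing (ChIP-seq) in 1 group of 2 biological replicates. The embryos, 0 to 24 h old and of mixed sex, came from a transgenic fly line that stably expressed tx with green fluorescent protein at its C terminus, and an antibody against that tag recovered the chromatin, which sonication had cut to 200 to 800 bp. The whole organism was used, so the peaks average over all embryonic cell types and stages, and the promoter driving the fusion is not given in the sources used here. Both replicates were called against 1 shared control, no precipitate without the tagged protein was analysed here, and the number of reads is unknown. With 1 group and 2 replicates no test between conditions exists. Shares are therefore given with 95% Wilson intervals, which cover the counting of peaks, pairs or genes only, and for the main shares with the value from each replicate alone.

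In compact genomes such as that of the fly, many neighbouring genes are transcribed away from each other out of 1 short shared stretch of DNA, and many such divergent pairs encode housekeeping proteins that most cells need. Promoters of this kind are often free of a TATA box and carry sites of DREF, a factor of replication and growth genes, and of the insulator protein BEAF-32. The tx protein, also called taxi or delilah, belongs to the basic helix-loop-helix family, whose members bind the E-box CANNTG as dimers, and it is known for its role in the tendon cells to which embryonic muscles attach.

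The DNA between the start sites is printed for the 6 strongest peaks of arms 2L, 3L, 3R and X whose summit lay between start sites 60 to 300 bp apart. These intervals show what a head-to-head promoter with a strong summit consists of. All are the plus strand of the Release 6 (dm6) sequence from RefSeq, running from the start of the minus-strand gene on the left to that of the plus-strand gene on the right, and capitals mark every E-box (CANNTG) and every CGATA, the core bound by DREF and BEAF-32, on either strand, so that CGATA on the minus strand reads TATCG. Art3, an arginine methyltransferase, faces mRpS10 of the small mitochondrial ribosome subunit (chr3R:15229408-15229665). Atat, an acetylase of alpha-tubulin, faces Shc, an adaptor of receptor tyrosine kinases (chr3L:9426758-9427010). Tcs5, of the complex that modifies adenosine in tRNA, faces CHMP2B of the ESCRT-III membrane machinery (chr3L:5139395-5139619). Bdp1, a subunit of the RNA polymerase III factor TFIIIB, faces CG6565 (chr2L:13373890-13374019). The remaining intervals lie between Mnat9 and CG1792 (chr3R:31616160-31616303) and between Mkk4, a kinase of the JNK pathway, and SLIRP2 (chr3R:8650796-8651084).
Art3/mRpS10: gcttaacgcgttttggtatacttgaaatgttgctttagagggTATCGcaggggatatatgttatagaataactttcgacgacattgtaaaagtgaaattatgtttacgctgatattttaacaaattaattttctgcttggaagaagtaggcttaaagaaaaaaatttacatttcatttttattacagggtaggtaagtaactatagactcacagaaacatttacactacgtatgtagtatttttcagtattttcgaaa
Atat/Shc: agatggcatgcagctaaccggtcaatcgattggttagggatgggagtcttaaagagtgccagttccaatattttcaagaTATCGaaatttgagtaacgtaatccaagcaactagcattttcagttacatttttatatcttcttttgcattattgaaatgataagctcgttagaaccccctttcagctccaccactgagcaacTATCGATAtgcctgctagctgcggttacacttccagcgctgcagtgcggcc
Tcs5/CHMP2B: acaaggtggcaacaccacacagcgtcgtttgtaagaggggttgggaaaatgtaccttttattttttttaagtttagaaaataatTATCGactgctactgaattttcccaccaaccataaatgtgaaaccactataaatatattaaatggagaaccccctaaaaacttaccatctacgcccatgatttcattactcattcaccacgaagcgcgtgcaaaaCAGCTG
Bdp1/CG6565: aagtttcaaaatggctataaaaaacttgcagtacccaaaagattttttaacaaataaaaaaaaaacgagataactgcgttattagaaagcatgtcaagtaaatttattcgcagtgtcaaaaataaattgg
Mnat9/CG1792: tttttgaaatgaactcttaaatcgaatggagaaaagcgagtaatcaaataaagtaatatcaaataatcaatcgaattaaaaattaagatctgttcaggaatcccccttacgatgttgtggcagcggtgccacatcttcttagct
Mkk4/SLIRP2: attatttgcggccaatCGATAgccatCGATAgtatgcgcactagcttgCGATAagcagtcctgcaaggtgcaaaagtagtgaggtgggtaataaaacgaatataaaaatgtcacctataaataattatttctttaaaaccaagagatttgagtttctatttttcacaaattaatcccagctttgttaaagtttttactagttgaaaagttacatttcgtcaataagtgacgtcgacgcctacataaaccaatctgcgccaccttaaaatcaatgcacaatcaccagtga

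The summit stood at base 122 of 258 in the Art3/mRpS10 interval, at base 129 of 253 at Atat/Shc, at base 112 of 225 at Tcs5/CHMP2B and at base 67 of 130 at Bdp1/CG6565. These 4 summits were close to the middle. At Mnat9/CG1792 the summit was at base 15 of 144 and at Mkk4/SLIRP2 at base 192 of 289, each nearer to 1 gene. Of the 6 intervals, the only E-box was CAGCTG in the Tcs5/CHMP2B interval, 108 bp to the right of the summit. The nearest CGATA to a summit began 27 bp to its left at Tcs5/CHMP2B and 49 bp to its left at Atat/Shc, and Atat/Shc also held the whole DREF site TATCGATA, beginning 74 bp to the right. At Art3/mRpS10 the only CGATA began 79 bp to the left. The Mkk4/SLIRP2 interval held 3 CGATA, 143 to 175 bp to the left of its summit, and the intervals at Bdp1/CG6565 and Mnat9/CG1792 held neither motif. GC content ran from 26.9% at Bdp1/CG6565 to 43.1% at Atat/Shc.

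The palindrome TATCGATA, in capitals, is shown in its surroundings for the 4 strongest peaks of these arms that held it within 50 bp of the summit. The first lies between Ttc19 and Acn (chr2L:19045309-19045348), the next between Fibp and Deaf1 (chr3L:19818116-19818163), the third between RpS25 of the cytosolic ribosome and CG4820 (chr3R:11216319-11216366), and the last inside CG43925, beside Sfmbt, a Polycomb group protein (chr2L:13176860-13176907).
Ttc19/Acn: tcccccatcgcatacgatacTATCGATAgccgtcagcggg
Fibp/Deaf1: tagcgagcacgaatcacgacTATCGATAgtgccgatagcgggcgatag
RpS25/CG4820: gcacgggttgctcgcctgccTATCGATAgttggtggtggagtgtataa
Sfmbt/CG43925: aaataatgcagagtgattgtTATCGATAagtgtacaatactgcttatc

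At Ttc19/Acn, a peak of rank 420 in the optimal IDR list (421 in replicate 1 and 369 in replicate 2), TATCGATA began 31 bp to the right of the summit, and at Fibp/Deaf1 (rank 553, with 682 and 452) it began 15 bp to the right. At RpS25/CG4820 (rank 614, with 420 and 2234) and at Sfmbt/CG43925 (rank 778, with 835 and 687) it began 9 and 5 bp to the left, so that the summit at Sfmbt/CG43925 stood on the palindrome itself. At the first 3 pairs the summit lay between the start sites. At Sfmbt/CG43925 it lay 462 bp inside CG43925.

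Head-to-head pairs carried peaks more often than genes without a divergent neighbour. The annotation held 2667 such pairs, formed by 5052 of 13945 protein-coding genes, and 850 pairs (31.9%, interval 30.1 to 33.7%) had a summit within 1000 bp of both start sites. With the 3102 strongest peaks of replicate 1 alone the share was 30.9%, and with those of replicate 2 alone 31.0%. Counted by gene, 1725 of the 5052 genes in pairs (34.1%, interval 32.8 to 35.5%) had a summit within 1000 bp of a start site, against 906 of 8893 genes in no pair (10.2%, interval 9.58 to 10.8%) and 18.9% of all protein-coding genes. In replicate 1 alone the shares were 33.1% of genes in pairs and 10.5% of genes in no pair, and in replicate 2 alone 33.2% and 9.59%. Both genes of a pair share a peak, so genes in pairs are not separate observations. The same order held for genes with the fewest start sites, counted per pair against per lone gene. Of 1265 pairs in which each gene had 1 start site, 351 (27.7%) carried a peak. Of 6791 genes in no pair that had 1 start site, 438 (6.45%) did. The units differ, since a pair has 2 start sites and a lone gene 1, while a pair leaves a narrower window for a summit.

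Most peaks belonged to 1 pair. Of the 852 peaks, 789 (92.6%) had start sites of exactly 2 genes within 1000 bp and 797 met the rule for 1 pair. The exceptions included the mod(mdg4) locus, a source of insulator protein isoforms by trans-splicing whose parts are annotated as separate genes. A single summit there, of rank 291 (455 in replicate 1 and 154 in replicate 2), touched 10 annotated genes in 21 pairs. Without the 37 pairs of that locus the share of pairs with a peak was 31.5%.

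Peaks were most frequent at pairs with an intermediate distance between the start sites. Of pairs 201 to 300 bp apart 42.3% (229 of 542) carried a peak, and of pairs 301 to 400 bp apart 41.5% (166 of 400). The share was 31.9% at 1 to 100 bp and 30.3% at 101 to 200 bp, and on the wide side it was 26.2% at 401 to 500 bp, 20.9% at 501 to 750 bp and 20.8% at 751 to 1000 bp. In 3 wider classes, pairs 201 to 400 bp apart stood at 41.9% (interval 38.8 to 45.1%), those up to 200 bp apart at 31.2% (28 to 34.5%) and those 401 to 1000 bp apart at 22.4% (19.8 to 25.1%). These intervals did not overlap, but the class limits fall at steps in the finer shares of the same peaks, so this is no separate support. Replicate 1 alone gave 39.7%, 31.6% and 21.5% for the same 3 classes and replicate 2 alone 41.9%, 27.9% and 22.6%, so the order was the same in each. In steps of 50 bp the share stood at 24.8% at 151 to 200 bp and 45.9% at 201 to 250 bp, and at 39.1% at 351 to 400 bp and 25% at 401 to 450 bp. Wide pairs leave fewer positions within 1000 bp of both start sites than narrow ones.

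**Figure D1:**
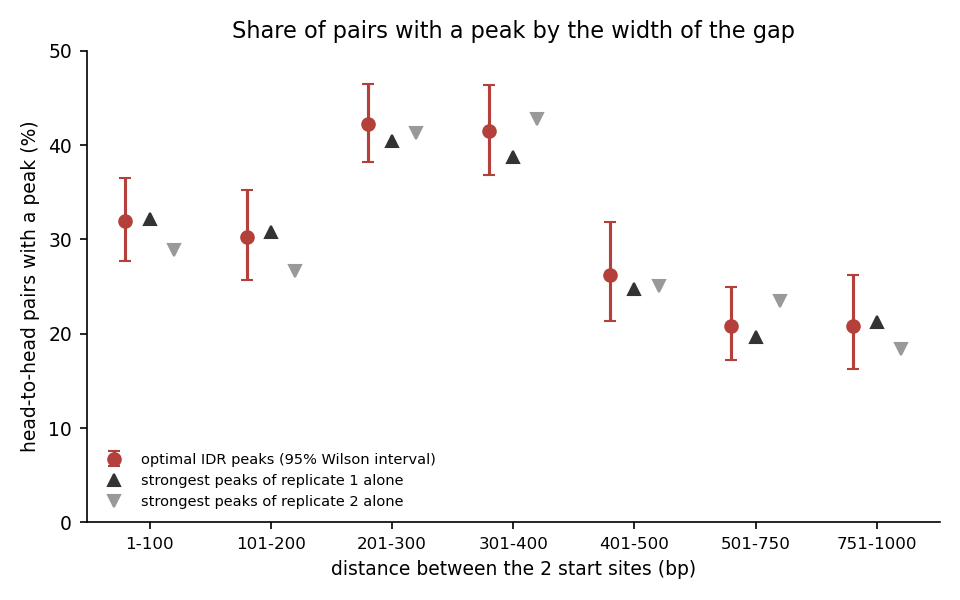
Percent of head-to-head gene pairs with a peak (y) by the distance between their start sites in bp (x), for the optimal IDR peaks with 95% Wilson intervals and for the 3102 strongest peaks of each replicate alone. In each of the 3 sets the 2 classes from 201 to 400 bp stand above all others, with 42.3% and 41.5% in the optimal IDR set.

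Summits lay mostly in the DNA between the start sites. The summit was between them in 616 of 852 peaks (72.3%, interval 69.2 to 75.2%), inside the minus-strand gene in 126 and inside the plus-strand gene in 110. In replicate 1 alone 69.2% were between and in replicate 2 alone 71.7%. Here the pair of start sites with the smallest distance was used. Counting any head-to-head start sites within 1000 bp of the summit, of this or another pair, 755 summits (88.6%) lay between some of them. The nearer start site was that of the minus-strand gene in 413 peaks and that of the plus-strand gene in 438, with 1 tie, and the 2 shares were within counting error of each other. The median summit stood 82.5 bp from the nearer start site of its pair and 235 bp from the farther one. At peaks near 1 gene only, the summit lay upstream of the nearest start site in 824 of 1087 (75.8%, interval 73.2 to 78.3%). A summit between the start sites of a pair is upstream of both genes, so the measures differ. A place upstream of a start site was thus not particular to pairs.

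How far a summit lay between the genes varied with the distance between them. At pairs up to 100 bp apart only 40 of 141 summits (28.4%) were between the start sites, at 101 to 200 bp 63.5% were, and at 201 to 300 bp 82.1% were. From 301 to 1000 bp the share stayed between 83.0% and 88%. Summits did not keep to the middle of wide pairs. The median distance from the nearer start site was 82 bp at pairs 201 to 300 bp apart, 100 bp at 301 to 400 bp, 97 bp at 401 to 500 bp and 120 bp at 751 to 1000 bp, whereas the median distance from the midpoint was 55.5 bp, 94 bp, 138 bp and 303.5 bp in these classes. At wide pairs the summit stood about as far from 1 gene as at pairs of medium width. For peaks near 1 gene only, the median distance of the summit from the nearest start site was 213 bp. The median of 82.5 bp over all peaks at pairs is to the nearer of 2 start sites that both had to lie within 1000 bp, so no order is read from these medians. Both start sites lay within the peak in 312 of the 852 peaks (36.6%).

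**Figure D2:**
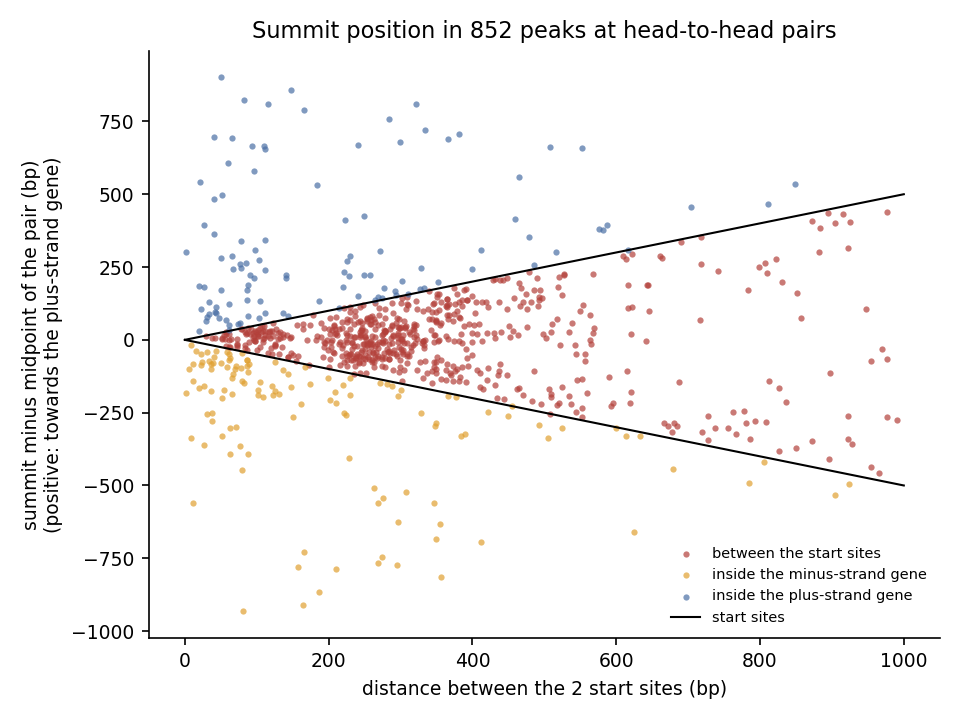
Position of each of the 852 summits relative to the midpoint of its gene pair in bp (y, positive towards the plus-strand gene) against the distance between the start sites in bp (x), with black lines at the start sites and colours for summits between them (616), inside the minus-strand gene (126) or inside the plus-strand gene (110). At pairs 751 to 1000 bp apart the median summit is 120 bp from the nearer start site and 303.5 bp from the midpoint.

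The distance limits were met closely by few peaks. The widest pairs inside the limit were CG32767/CG15465, 991 bp apart (rank 3036), and Pax/Lectin-galC1, 977 bp apart (rank 510), and the nearest pairs outside it were Rpn11/qtc, 1025 bp apart (rank 1811), and CG9776/CG14645, 1027 bp apart (rank 1953). For the distance of the summit, the farthest start sites inside the limit were 994 bp away at Pgk/Bacc (rank 1625) and 993 bp at CG30016/nclb (rank 3043). Those just outside were 1001 bp away at AP-2sigma/Idi (rank 3041) and 1011 bp at px/CG11362 (rank 1952). At the other end, dpa, which encodes a subunit of the replicative MCM helicase, and didum, a class V myosin, start 2 bp apart, with the summit 182 bp inside dpa (rank 417, with 442 in replicate 1 and 463 in replicate 2). CG11710 and mal also start 2 bp apart, CG3032 and CG4593 6 bp apart, and SerRS, the seryl-tRNA synthetase, and CG17260 8 bp apart, as do CG9588 and Lkb1, a kinase of cell polarity and metabolism.

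The strongest peaks at head-to-head pairs were among the strongest of all, and both replicates ranked them alike. The peak at Ugalt, a transporter of UDP-galactose, and eIF2Bbeta, a subunit of the exchange factor that recharges the initiation factor eIF2, ranked 3 in the optimal IDR list, 3 in replicate 1 and 3 in replicate 2. Its summit stood 42 bp from the Ugalt start and 677 bp from that of eIF2Bbeta. The peak at Chro, the chromatin protein Chromator, and Ssl1, a subunit of the transcription and repair factor TFIIH, ranked 5, with 7 in replicate 1 and 4 in replicate 2. That at mRpL41, of the large mitochondrial ribosome subunit, and CG8079 ranked 8, with 9 and 7. PNPase, a mitochondrial RNA exonuclease, and Gprk2, a kinase of G protein-coupled receptors, shared the peak of rank 9 (10 and 8), and Art3/mRpS10, shown above, that of rank 11 (12 and 9). These 5 pairs were also those whose poorer replicate rank was best. None of their ranks moved by more than 3 places between the replicates, but ranks this high in both leave little room to move.

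Atat/Shc ranked 13 (17 in replicate 1 and 5 in replicate 2), and Pdrg1/Pal1, the second gene being a lyase of peptide amidation, ranked 16 (19 and 14). Fbw5, an F-box protein, and CG9147 ranked 18 (16 and 20), Tcs5/CHMP2B 19 (22 and 11), and mRpS23/CenG1A 20 (15 and 26). The peak of rank 25 (30 and 21) at Dpit47, a co-chaperone of Hsp90, and the transcription factor gene Adf1 lay 786 bp inside Adf1. The others of the 15 strongest were CG8372/CG8360 (rank 31), CG5757/CG5098 (rank 32), Pex11ab/CG8320 (rank 33), Pex11ab being a peroxisome division protein, and tank/CG12194 (rank 34). In 7 of these 15 peaks the summit lay between the start sites.

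Peaks at pairs spread over the whole range of strength. The deposited signal, the authors' own peak value, had a median of 95 in the 852 peaks, with a lowest value of 58.5 at NELF-B/CG12155 and a highest of 1264 at Ugalt/eIF2Bbeta, against a median of 92.8 for peaks near 1 gene. Of the 852 peaks 187 (21.9%, interval 19.3 to 24.9%) were among the 620 strongest of the list and 158 (18.5%) among the weakest of 5 equal classes. Their median rank was 1450, against 1497 for peaks near 1 gene and 1668.5 for peaks with no start site within 1000 bp. The weakest were Cchl/ND-42 (rank 3099, with 5010 in replicate 1 and 1547 in replicate 2) and NELF-B/CG12155 (rank 3101), the first gene of which encodes a subunit of the factor that pauses RNA polymerase II. The NELF-B/CG12155 peak ranked 3573 in replicate 1 and had no summit within 100 bp in replicate 2.

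In replicate 1 the peaks at pairs were recovered somewhat less often than peaks in general, and in replicate 2 about as often. Among the 3102 strongest peaks of replicate 1, a summit within 100 bp was found for 726 of the 852 peaks (85.2%, interval 82.7 to 87.4%), against 87.6% of all optimal IDR peaks. For replicate 2 it was 646 (75.8%, interval 72.8 to 78.6%), against 74.9%. Both replicates held 549 of the peaks at pairs (64.4%), against 65.2% of all optimal IDR peaks, and neither held 29. In the relaxed lists of 30000 peaks, 832 had a match in replicate 1 (97.7%, against 98.3% of all) and 778 in replicate 2 (91.3%, against 92.6%). Summits moved little, with a median offset of 9 bp in replicate 1 and 21 bp in replicate 2. Over the 760 peaks found in both relaxed lists the signals correlated with Spearman's rho 0.64 and, as logarithms, Pearson's r 0.72. This is a correlation across peaks, which were selected for agreement, and no p is given. It was 0.68 and 0.74 over 986 peaks near 1 gene.

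A minority of peaks rested mainly on replicate 1. Among peaks matched in both relaxed lists, the 5 with the largest difference in rank were all far weaker in replicate 2. The 74 peaks with no match in replicate 2, and the 20 with none in replicate 1, have no rank in that list. The peak at CG7044 and Tbc1d22 ranked 2485 in replicate 1 and 27891 in replicate 2. The peak at CG12929 and RpL31, of the large cytosolic ribosome subunit, ranked 906 in replicate 1 and 25350 in replicate 2, and that at CG13603 and CG5902 ranked 1899 and 25349. CG5742/adp (3220 and 26420) and CG6321/Blos2 (2513 and 25285) completed the 5. The pair CG5742/adp had another summit 203 bp away (rank 2293), which ranked 1354 in replicate 2 and had no match in replicate 1. Peaks ranked so much lower in replicate 2 form the column at the top right of the plot of replicate ranks.

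**Figure D3:**
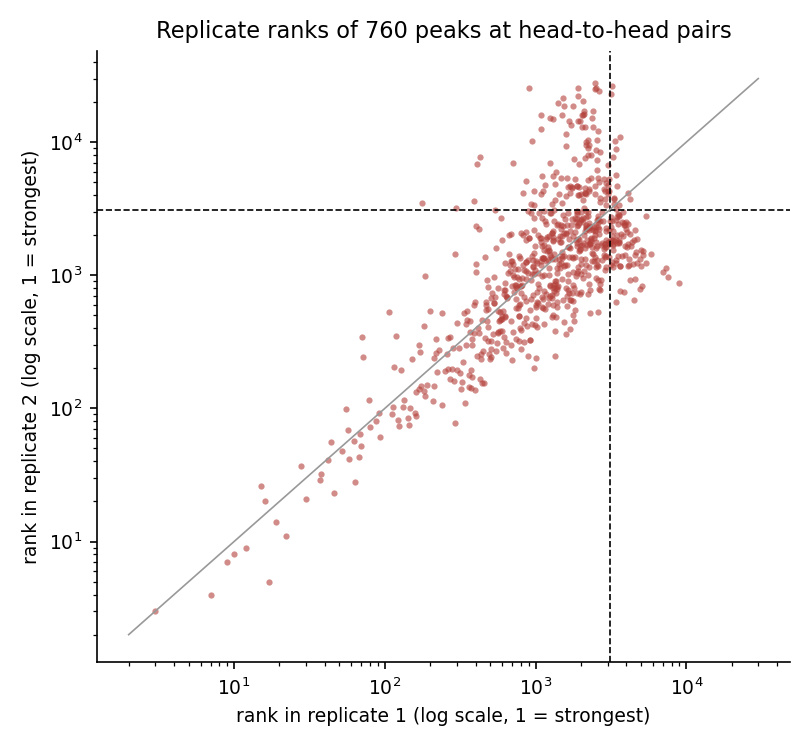
Rank in replicate 2 (y, log scale) against rank in replicate 1 (x, log scale) for the 760 peaks at head-to-head pairs found in both relaxed lists, with dashed lines at rank 3102 and a grey line of equal rank. The strongest peaks lie near the line of equal rank, and the spread is widest beyond rank 1000, where some peaks rank far lower in replicate 2.

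At 78 pairs the peaks came as neighbours. Each of these pairs had 2 summits, 156 peaks in all, with a median separation of 208 bp (quartiles 201 and 238.5 bp, lowest 199 bp, highest 1021 bp), and at 60 pairs it was at most 250 bp. The 2 summits of a pair are not independent, since peaks this close overlap and share signal: most peaks were called 410 bp wide, and no neighbouring summits anywhere in the optimal IDR set were closer than 199 bp. At 28 pairs both summits lay between the start sites, at 35 pairs 1 did and at 15 neither did. At 55 pairs 1 summit was nearer the minus-strand gene and the other nearer the plus-strand gene. The median distance between start sites was 300 bp at the 78 pairs. With summits at least 199 bp apart, such placement can follow from the spacing alone, so no separate binding at each gene is read from it. Another summit within 250 bp was seen for 124 of the 852 peaks (14.6%, interval 12.3 to 17.1%), against 101 of 1087 peaks near 1 gene (9.29%, 7.71 to 11.2%) and 45 of 1088 peaks with no start site within 1000 bp (4.14%).

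Several double summits, spaced 199 to 204 bp apart and so close to the lowest spacing in the set, stood 1 nearer each gene. At RpL32, of the large cytosolic ribosome subunit, and CG7943 the summit of rank 515 was 98 bp from the RpL32 start and that of rank 1451 was 9 bp from the CG7943 start. At Xe7/Atg17, the second gene being a scaffold of autophagy, the summit of rank 362 was 89 bp from Xe7 and that of rank 2121 was 90 bp from Atg17. At Kap-alpha3, an importin, and Son the distances were 75 bp (rank 569) and 30 bp (rank 2758). At pll, the kinase Pelle of the Toll pathway, and TfIIA-L, a subunit of TFIIA, they were 43 bp (rank 1068) and 6 bp (rank 2402). Others had a second summit inside a gene, as at Eno/Rrp40, enolase beside an exosome subunit, where both summits lay inside Eno (425 and 630 bp from its start, ranks 1407 and 731). Replicate 2 lacked a match for some of the weaker summits, among them those at Hsc70-5/CG8531 (rank 2987) and Kap-alpha3/Son (rank 2758).

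The share of pairs with a peak differed between chromosome arms. It was highest on 3R, with 275 of 683 pairs (40.3%, interval 36.6 to 44.0%), and lowest among the long arms on X, with 98 of 403 (24.3%, interval 20.4 to 28.7%). The shares were 33.0% on 3L, 29.3% on 2L and 28.7% on 2R, and chromosome 4 had 1 of 11 pairs. The mod(mdg4) locus lies on 3R, where 1 summit gives 21 of its 37 pairs a peak. These pairs are not separate observations, and the share of 3R without them was not computed. In replicate 1 alone 3R stood at 37.8% and X at 22.6%, and in replicate 2 alone at 37.6% and 24.6%. Genes in no pair did not show this order, with 9.75% bound on 3R (interval 8.57 to 11.1%) and 11.1% on X (9.58 to 12.9%). The peaks at pairs numbered 263 on 3R, 177 on 3L, 158 on 2R, 156 on 2L, 97 on X and 1 on chromosome 4.

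Peroxisome, cytosolic ribosomal protein and ribosome biogenesis genes had the highest shares among the gene lists. Their shares are set beside the 1608 of 5052 genes in pairs (31.8%) whose pair had a peak, and the lists overlap in pairs where both partners are listed. The lists were drawn by patterns of gene symbols and are incomplete. Among the genes named above, dpa, Ssl1, NELF-B and CHMP2B are missing from the replication, transcription and membrane traffic lists. Shares and strongest peaks are therefore those of the listed genes only. Of 55 cytosolic ribosomal protein genes in pairs, 33 (60%, interval 46.8 to 71.9%) were in a pair with a peak. In replicate 1 alone it was 37 (67.3%) and in replicate 2 alone 23 (41.8%), a difference between the replicates wider than for all genes in pairs, which stood at 30.7% and 30.9%. Ribosomal protein genes in no pair were bound in 15 of 37 cases (40.5%), above the 10.2% of all genes in no pair, so the high share was not limited to pairs. The strongest were RpS27 with Nup37, a nucleoporin (rank 96, with 71 in replicate 1 and 341 in replicate 2), RpL7 with Ripalpha, a partner of the single-strand DNA binding complex RPA (rank 137, with 107 and 526), and RpS20 with CG17271 (rank 141, with 160 and 132).

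Of 27 genes of ribosome biogenesis and the RNA exosome in pairs, 16 (59.3%, interval 40.7 to 75.5%) were in a pair with a peak, with 59.3% in replicate 1 alone and 51.9% in replicate 2 alone. The strongest were the nucleostemin family GTPase Ns2 beside POSH (rank 125, with 115 and 203), the exosome subunit gene Csl4 beside the nucleoporin gene Nup160 (rank 528, with 513 and 737) and Rrp40 beside Eno (rank 731, with 1137 and 429). None of the 6 such genes in no pair was bound. Peroxisome biogenesis genes had 8 of 12 in a pair with a peak (66.7%, interval 39.1 to 86.2%), 6 of 12 in replicate 1 alone and 8 of 12 in replicate 2 alone. Besides Pex11ab they included Pex16, which acts early in peroxisome assembly, facing Pex14 of the import docking complex (rank 836, with 1115 and 571), and Pex13, of the same complex, beside fsd (rank 855, with 1100 and 580).

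Other housekeeping groups stood nearer to the share of all genes in pairs. Mitochondrial ribosomal proteins had 25 of 59 genes in a pair with a peak (42.4%, interval 30.6 to 55.1%), led by mRpL41, mRpS10 and mRpS23, and 1 of 16 bound among those in no pair. General transcription factors and Mediator had 22 of 52 (42.3%), led by MED30 beside the DNA polymerase gene Rev1 (rank 88, with 92 in both replicates), Polr2H beside CG11247 (rank 117) and MED15 beside CG4297 (rank 220). Translation factors and aminoacyl tRNA synthetases had 21 of 52 (40.4%), led by eIF2Bbeta, SerRS (rank 318, with 431 and 165) and GluProRS (rank 405, with 429 in replicate 1 but 7709 in replicate 2). Membrane traffic genes had 31 of 81 (38.3%), with Vps33B beside the protease gene Fur1 (rank 46, with 44 and 56), Vti1b beside Vha100-2 (rank 249) and Vps36 beside Liprin-beta (rank 254). Each of these 4 intervals includes the share of all genes in pairs.

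Chromatin, insulator and nuclear pore genes had 17 of 47 in a pair with a peak (36.2%), led by Chro, Nup37 and Nup98-96, and oxidative phosphorylation 15 of 47 (31.9%), led by the complex I genes ND-MWFE beside TppII (rank 164), ND-51 (rank 384) and ND-ASHI (rank 507). Splicing genes had 9 of 31 (29.0%), with SF2 (rank 893), Prp31 beside the mismatch repair gene Msh6 (rank 1041) and Sf3b6 (rank 1158). DNA replication and repair had 12 of 44 (27.3%), with dup, the licensing factor Cdt1 (rank 412, with 291 and 1456), PolD2 (rank 534) and Rad60 (rank 543). The proteasome had 7 of 26 (26.9%), led by Rpn5 beside the histone acetyltransferase gene Hat1 (ranks 229 and 1006) and Rpn3 (rank 766). All 5 groups were within counting error of 31.8%.

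None of 28 segmentation and Hox genes was part of a head-to-head pair, and 6 of 40 somatic muscle genes (15%) were, against 36.2% of all protein-coding genes. Of the muscle genes in pairs mbc, a regulator of Rac in myoblast fusion, shared 2 summits with Nup98-96 (ranks 280 and 1452). Of 18 genes of tendon cells and integrin adhesion 7 (38.9%) were in pairs and 4 of them in a pair with a peak, against 5 of the 11 in no pair. In replicate 1 alone it was 4 of 7 and in replicate 2 alone 2 of 7. The strongest were Pax, the adhesion protein paxillin, with the facing genes Alp12 (rank 189, with 170 and 267) and Lectin-galC1 (rank 510, with 403 and 1066), and Ilk, the integrin-linked kinase, beside Trmt112 (rank 376, with 176 in replicate 1 and 3461 in replicate 2).

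**Figure D4:**
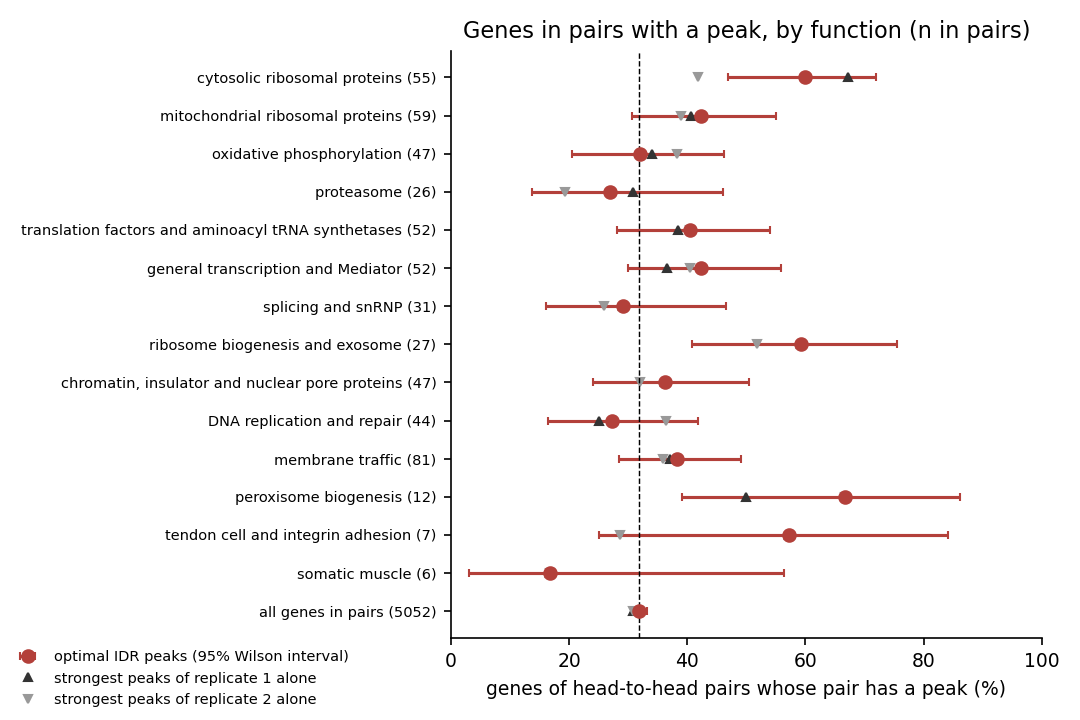
Percent of the genes in head-to-head pairs whose pair had a peak (x), for each gene group (y, with the number of its genes in pairs), in the optimal IDR set with 95% Wilson intervals and with the strongest peaks of each replicate alone. The dashed line is the 31.8% of all genes in pairs; cytosolic ribosomal proteins (60%), ribosome biogenesis (59.3%) and peroxisome biogenesis (66.7%) have intervals above it, and the replicates lie far apart for cytosolic ribosomal proteins.

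In 15 of the 850 pairs with a peak (1.76%) both genes were on the lists, against 22 of the 1817 pairs without one (1.21%). Among them the pair Pex16/Pex14 and the pair Rrp5/Dis3 (rank 2576), of pre-rRNA processing and the exosome, joined genes of 1 pathway, as did RPA1/Mcm2 (rank 2793, with 7024 in replicate 1 and 1060 in replicate 2), of single-strand DNA binding and the replicative helicase, and Exo84/Vps2 (rank 2227) of membrane traffic. Others joined ribosomal protein genes to regulators, as Nelf-E/RpL14 (rank 302, with 185 and 992) and Dref/RpL13 (rank 718, with 545 in replicate 1 and no match in replicate 2), which places a peak at the gene of the DREF protein itself. In all, 208 of the 850 pairs with a peak held a listed gene (24.5%), against 315 of 1817 pairs without one (17.3%), on lists that are incomplete.

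The core CGATA was more frequent at the summits of these peaks than at other peaks, and the E-box was not. Windows of 50 bp either side of the summit were searched on both strands. CGATA, which is also part of TATCGATA, stood in 250 of 852 windows (29.3%, interval 26.4 to 32.5%), against 213 of 1087 (19.6%, 17.3 to 22.1%) for peaks near 1 gene and 125 of 1088 (11.5%, 9.73 to 13.5%) with no start site within 1000 bp. In replicate 1 alone the share at pairs was 30.04%, against 20.2% near 1 gene, and in replicate 2 alone 26.7%, against 18.4%. At least 2 copies stood in 12.8% of windows at pairs, against 5.80% near 1 gene. The whole DREF palindrome TATCGATA was in 55 windows (6.46%, interval 4.99 to 8.31%), against 2.02% near 1 gene and 1 of 1088 elsewhere.

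The higher share of CGATA went with nearness to a start site. Where the summit was at most 50 bp from the nearest start site of any protein-coding gene, CGATA stood in 125 of 295 windows at pairs (42.4%) and in 54 of 135 near 1 gene (40%). At 51 to 100 bp the shares were 33.1% at pairs and 35.3% near 1 gene, at 101 to 200 bp 13.3% and 16.3%, and at 201 to 1000 bp 13.5% and 12.4%. Within each of these 4 classes of distance the intervals overlapped. TATCGATA stood at 11.5% of summits at pairs and 8.89% near 1 gene within 50 bp, and at 7.39% and 5.15% at 51 to 100 bp, again with overlapping intervals. Of the peaks at pairs 552 had their summit within 100 bp of a start site, against 271 of the 1087 peaks near 1 gene.

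At their midpoints, pairs without a peak carried CGATA and TATCGATA about as often as pairs with one. The midpoint of a wide pair can lie far from a summit, so these windows do not describe whole pairs. At the midpoints of the 850 pairs with a peak CGATA stood in 22.2% of windows of the same length (interval 19.6 to 25.2%), against 24.2% (22.3 to 26.2%) at the midpoints of the 1817 pairs without one. TATCGATA stood at 4.35% of midpoints with a peak and 5.12% without. Among the 852 peaks CGATA was less frequent at strong summits. It stood in 106 of the 450 windows at peaks ranked up to 1551 (23.6%, interval 19.9 to 27.7%), against 144 of 402 at weaker peaks (35.8%, 31.3 to 40.6%). Peaks with CGATA had a median rank of 1753, against 1286.5 for peaks without it. The strongest with CGATA were Chro/Ssl1, Atat/Shc and Tcs5/CHMP2B.

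**Figure D5:**
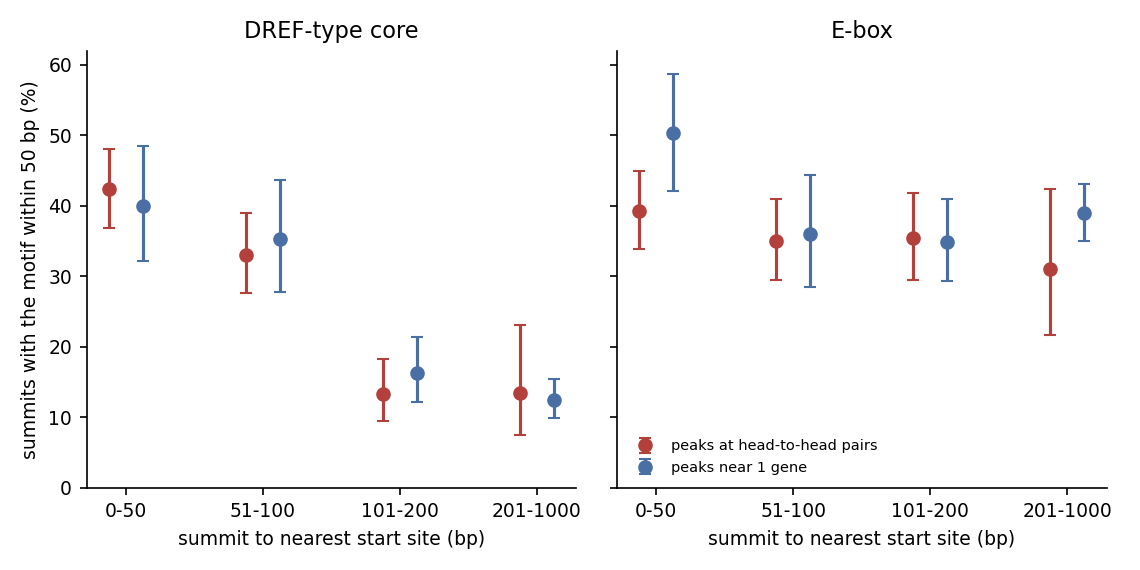
Percent of summit windows (50 bp either side) with CGATA (left) and with the E-box CANNTG (right) by distance of the summit from the nearest start site in bp (x), for peaks at head-to-head pairs and peaks near 1 gene, with 95% Wilson intervals. CGATA stands at 42.4% and 40% nearest to the start and at 13.5% and 12.4% beyond 200 bp, with little between the sets at any distance.

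The E-box CANNTG stood in 309 of 852 windows at pairs (36.3%, interval 33.1 to 39.6%), against 39.1% (36.2 to 42.0%) near 1 gene and 38.4% with no start site within 1000 bp. Replicate 1 alone gave 38.6% at pairs and replicate 2 alone 36.8%. Within 50 bp of a start site it was in 39.3% of windows at pairs (33.9 to 45.0%) and 50.4% near 1 gene (42.0 to 58.7%). At pair midpoints it was in 33.5% of windows with a peak and 35.4% without. The class CAGCTG was in 57 windows at pairs (6.69%, interval 5.20 to 8.57%), against 5.43% near 1 gene and 3.03% elsewhere. At pair midpoints CAGCTG was in 6.71% of windows with a peak and 6.77% without. CACGTG was there in 1.41% (interval 0.81 to 2.45%) and 0.55% (0.30 to 1.01%), and CATATG in 1.76% (1.07 to 2.89%) and 3.47% (2.72 to 4.41%), with overlapping intervals. The strongest peak at a pair with CAGCTG was RpS27/Nup37. CATATG was in 2.23% at pairs and 4.32% near 1 gene, and CACGTG in 1.41% and 1.38%. Peaks with an E-box had a median rank of 1472 and those without it 1436. In bins of 50 bp up to 500 bp either side, the share of the 852 peaks with an E-box lay between 21.0% and 26.5%, and the lowest bin was the one from the summit to 49 bp to its right.

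Other promoter words gave smaller numbers. CATCNCT and CAGCNCT, the cores of the promoter element called motif 7, stood in 10.4% (interval 8.57 to 12.7%) and 9.86% (8.03 to 12.04%) of windows at pairs, against 4.97% and 6.62% near 1 gene. Within 50 bp of a start site CAGCNCT stood at 15.3% of summits at pairs and 15.6% near 1 gene, and at 51 to 100 bp at 9.73% and 16.2%. CATCNCT stood at 16.6% and 11.9% within 50 bp and at 7.78% and 6.62% at 51 to 100 bp. The intervals of pairs and single genes overlapped in each of these classes. At pair midpoints CAGCNCT stood in 7.88% of windows with a peak (interval 6.25 to 9.89%) and 4.73% without (3.85 to 5.81%). Those 2 intervals did not overlap. CATCNCT stood in 5.41% of midpoint windows with a peak and 4.84% without. GGTCACAC, the core of motif 1 bound by the factor M1BP, was in 9 windows (1.06%), against 1.84% near 1 gene, and at 2.00% of pair midpoints with a peak against 3.19% without. At the summits of replicate 1 alone the order was the other way round, with 2.44% of windows at pairs and 1.95% near 1 gene, and with replicate 2 alone it was 1.36% and 1.82%. GAGAG, the word of GAGA factor, was in 7.86% at pairs and 10.4% near 1 gene, TATAAA in 18% and 15%, and the initiator word TCAGTT in 6.22% and 6.16%. A word in a window is a description of the sequence and not evidence of a bound factor.

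Summits at pairs lay in DNA poor in G and C. Mean GC content within 50 bp was 37.0% (SD 9.02 over 852 windows), against 37.2% at peaks near 1 gene and 34.6% with no start site within 1000 bp. Windows 500 bp to the left had 48.9% and those 500 bp to the right 48.1%, positions that mostly lie within the genes. Midpoints of pairs were lower still, at 32.7% with a peak and 33.8% without.

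Most pairs without an optimal IDR peak still had weaker summits in the relaxed lists. Of the 1817 such pairs, 1336 (73.5%) had a summit of replicate 1 within 1000 bp of both start sites and 944 (52.0%) one of replicate 2, 837 (46.1%) had both and 374 (20.6%) neither. The relaxed lists are deposited as peaks together with background. They held a summit for 50.4% of all genes in no pair in replicate 1 and 50.01% in replicate 2, including genes with an optimal IDR peak. Over all 2667 pairs, with or without such a peak, the shares were 82.0% and 67.0%.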

How the data were processed

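The authors deposited ChIP-seq peak lists for 2 replicates, for the pooled replicates and as an optimal IDR set, on dm6 and dm3, and only dm6 was used. Each peak's signal value, computed by the authors, served to rank peaks within a list. No aligner or peak caller is given in the sources used here, and read depth is unknown. Start sites of protein-coding transcripts came from Ensembl release 115 (BDGP6.54) and sequence from the RefSeq Release 6 genome. Where several start sites qualified, the pair with the smallest distance was described. A replicate match required summits within 100 bp, and motif windows reached 50 bp either side. Shares have 95% Wilson intervals, and no test was run. Each replicate alone means its 3102 strongest peaks.

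Named genes are those of the 15 strongest peaks and up to 3 strongest peaks for each of 15 gene lists. They include the 5 peaks with the largest difference in replicate rank and the 5 whose poorer replicate rank was best. Both sides of each distance limit, the narrowest pairs and pairs with 2 summits were also named. Others, such as genes of pairs listed on both sides, were chosen after their values were seen. The peak set, lists and words were chosen with earlier results of these data known. Alternatives are given in the closing section. Python 3.11.15, numpy 2.4.6, pandas 2.3.3, scipy 1.17.1 and matplotlib 3.10.9 were used. The code for classes, rank matches and motifs was tested on simulated data.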

Additional observations from a re-analysis of the deposited data

How the results depend on the processing

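Of 44 alternatives for 6 main shares and counts, 28 stayed within 1.5 times the count or within the Wilson interval of the share. With the 1551 strongest peaks there were 450 peaks at pairs and 18.3% of pairs had one, since fewer peaks were counted. The share of pairs was 26.7% with summits within 500 bp, 36.4% within 2000 bp, 35.5% for start sites at most 500 bp apart, 25.1% at most 2000 bp apart and 27.5% with genes of every biotype. The share of summits between the start sites was 77.3% within 500 bp and 59.4% within 2000 bp. It was 88.6% for any head-to-head start sites within 1000 bp, a setting chosen after seeing the data. The share among the strongest peaks of replicate 1 was 81.5% for matches within 50 bp and 89.6% in the stronger part of both lists. For replicate 2 it was 64.7% within 50 bp, 79.5% within 200 bp and 80.9% in the stronger part. Each replicate alone gave 809 to 819 peaks, 30.9% to 31.0% of pairs, 69.2% to 71.7% between, and 21.1% to 25.5% of peaks among the 620 strongest, the last being higher in replicate 2. No paired analysis was possible because there is 1 group. Depth, control quality and transcription level were not tested.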
